A study of Mus musculus with 22 samples.

Results

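Gc encodes vitamin D binding protein, and its ac4C peak was studied here in the kidneys of 6 db/db and 5 db/m mice. All rows of the deposited peak table that carry the gene name Gc were taken, and this gave 1 of 9857 peaks. The rows named Lrp2, Vdr and Cubn were added for the uptake of the protein and the action of its cargo in the tubule, which gave 2 Lrp2 peaks, 2 Vdr peaks and 0 Cubn peaks. Gc was chosen by its IP reads, which were higher in db/db mice, so its levels in the genotypes are a description and carry no test. The db/db mice carry 2 mutant copies of the leptin receptor gene, which leads to obesity and diabetes, and the heterozygous db/m mice served as nondiabetic controls. The db/db and db/m mice of the study were male, and no treatment is labelled for these samples. The paper gives the age at which such mice were obtained. The age of the sequenced mice when the kidneys were taken is not given in the sources used here. Total RNA of kidney tissue was used. In acRIP-seq, mRNA selected with oligo d(T) is broken into fragments, and those bearing N4-acetylcytidine (ac4C), an acetylated base of RNA, are pulled down with an antibody (IP). Each of the 11 mice had an IP library and a library made without the antibody, called RNA-seq here, which shows how much of a transcript was present. The mutation affects the whole animal, so diabetes and obesity cannot be told apart in this model.

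Vitamin D binding protein belongs to the albumin family, is secreted mainly by the liver and carries vitamin D and its hydroxylated forms in plasma. It passes the glomerular filter and is taken back into proximal tubule cells by megalin, the product of Lrp2, together with cubilin, the product of Cubn. In those cells 25-hydroxyvitamin D is converted to the active hormone, which acts through the vitamin D receptor, the product of Vdr.

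The Gc peak lay on chromosome 5 from 89457749 to 89457809 (GRCm38, minus strand, 61 bases), in the list that the authors called in db/db mice. The Gc gene of RefSeq runs from 89417511 to 89457898 over 40388 bases, and the peak lay 89 to 149 bases downstream of its start, at the 5′ end of the transcript. The sequence under the peak was not read, because no genome sequence was used here. The promoter window of RefSeq, 300 bases around the gene start, was searched on both strands for the letters GTTAAT followed, after 1 base of any kind, by ATTAA. These are consensus letters of HNF1, a transcription factor of liver and proximal tubule. The window held 1 match, and the 30 bases around it are printed below. They lie at chr5:89457930-89457959 and are written 5′ to 3′ on the strand of the gene, with the match in capitals.
Gc: agtgacaaaGTTAATGATTAAaacctccca
The match began 52 bases and ended 41 bases before the gene start. These letters were held by 20 of 32851 RefSeq promoter windows (0.0609%), and no match was found in the windows of Lrp2, Vdr, Cubn, Alb, Afp, Afm, Lrpap1, Slc34a1, Aldh1a1, Cyp26b1, Fabp1 and Apoe. A match describes the sequence and is not a bound site, and the motif was chosen after the window had been seen. The letters were thus set with the Gc match known, so their share of windows is not a test. Only these exact letters were searched, and they are rare, so windows without a match are not shown to lack HNF1 sites.

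The 9857 peaks held 7577171 to 10293757 reads in each IP library and 3151035 to 3352535 in each RNA-seq library. They join the list called in db/db mice and the list called in db/m mice, and some peaks overlap or are the same in both. Reads in such peaks are counted more than once in these sums, and shares of all peaks count such peaks separately. Levels are given as CPM, reads of a peak per 1000000 reads in all peaks with TMM scaling, and as mean ± SD over mice. Log2 fold changes are of db/db over db/m mice, with the standard error in brackets, and a peak passed the test when its Benjamini-Hochberg adjusted p over all 9857 peaks was under 0.05 in edgeR's quasi-likelihood test. All pairs of libraries of the same genotype and type differed by more than sampling noise, so each mouse counted as 1 replicate. Because whole kidney tissue was sequenced, fewer cells of a type and less RNA per cell cannot be told apart. Of the proximal tubule markers, 8 of 12 had a peak, and their summed RNA-seq level was 4826 to 7143 CPM in db/db mice and 9995 to 10959 in db/m mice. Slc27a2 (4185 and 5836 CPM on average) and Acsm2 (650 and 2624 CPM) made up most of this sum, and Slc4a4, Slc5a2 and Aqp1 had RNA-seq changes of -0.01, -0.16 and -0.23 on the log2 scale that did not pass. Peaks were found for 3 of 5 markers of the loop of Henle and distal tubule, 3 of 4 of endothelium and podocytes, 3 of 9 of adipocytes, 0 of 3 of leukocytes and 0 of 18 of hepatocytes.

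Gc was high in the kidneys of all 6 db/db mice and low in those of the 5 db/m mice, in both kinds of library. Among IP libraries, the peak had 34.9, 47.5, 34.5, 38.2, 36.8 and 49.1 CPM in db/db mice 1 to 6. In db/m mice 1 to 5 it had 4.07, 2.12, 0.549, 0 and 0.111 CPM. The genotypes did not overlap. For comparison, all db/db values lay above all db/m values in 2.78% of the 9857 peaks in IP reads. The means were 40.2 ± 6.46 CPM (SD, n = 6) and 1.37 ± 1.73 (SD, n = 5), and the log2 fold change was 4.84 (SE 0.61).

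The RNA-seq reads of the same 61 bases gave the same order of the genotypes. In db/db mice 1 to 6 they came to 54.2, 41.4, 62.0, 53.9, 63.5 and 51.9 CPM, and in db/m mice 1 to 5 to 2.89, 1.26, 2.62, 2.23 and 0.951 CPM. The genotypes did not overlap here either, and db/db mice lay wholly above db/m mice in 3.55% of all peaks in RNA-seq reads. The means were 54.5 ± 7.96 CPM (SD, n = 6) and 1.99 ± 0.847 (SD, n = 5), and the log2 fold change was 4.75 (SE 0.23). From the top, Gc was 5th of 9857 peaks by its log2 fold change in RNA-seq reads and 44th in IP reads. Among the 6772 peaks with a mean of at least 10 reads in a genotype of both library types, it was 3rd in RNA-seq reads and 2nd in IP reads. In RNA-seq reads Gc met this filter only through its db/db level. All these ranks use the contrast by which Gc was chosen, so they are a description and no support for its change.

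**Figure D1:**
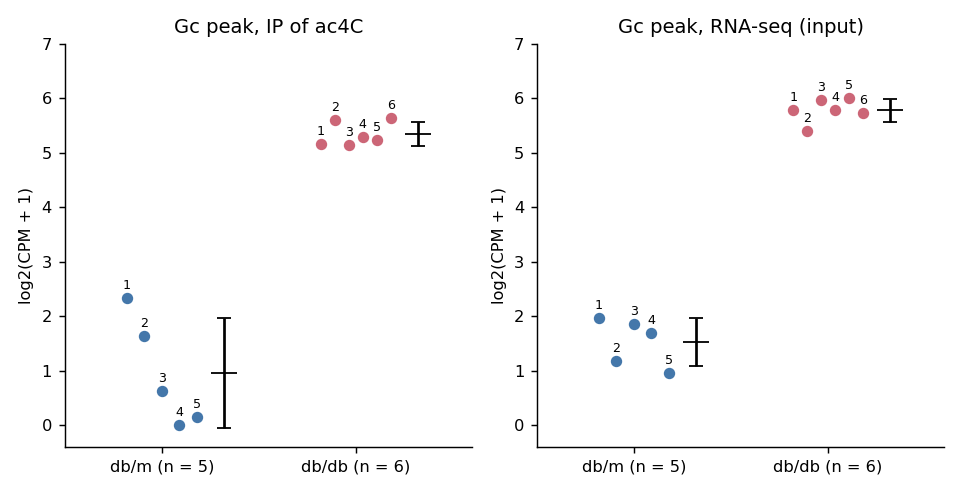
Level of the Gc peak in each mouse as log2(CPM + 1), in IP libraries on the left and RNA-seq libraries on the right. Points are mice with their number, and bars give the mean and SD of 5 db/m and 6 db/db mice. All 6 db/db mice lie above all 5 db/m mice in both panels, and the db/m mice spread more widely in IP than in RNA-seq reads.

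The reads behind these levels set their precision. Over the 6 db/db mice the peak had 2154 IP reads and 1079 RNA-seq reads, and over the 5 db/m mice it had 66 and 31. The db/m IP reads of mice 1 to 5 were 40, 20, 5, 0 and 1, so mouse 1 alone gave 60.6% of them, against 29.0% of the db/m RNA-seq reads. The 0 IP reads of db/m mouse 4 allow up to 3 reads by counting error alone, which is 0.305 to 0.362 CPM over the IP libraries. Without db/m mouse 1, the db/m IP mean was 0.695 ± 0.979 CPM (SD, n = 4) and the log2 fold change was 5.83 (SE 0.59). The db/m level was therefore low in every mouse but known only roughly in IP reads. The RNA-seq reads of those mice, 9, 4, 8, 7 and 3, lay closer together.

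The spread among db/db mice was small beside the distance to the controls. The highest db/db level of the Gc peak was in mouse 6 in IP reads and in mouse 5 in RNA-seq reads, and the lowest was in mouse 3 in IP and in mouse 2 in RNA-seq reads. The mouse with the lowest RNA-seq level, mouse 2, had the second highest IP level.

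IP reads of a peak depend on how much of the transcript is present, so the IP level was set against the RNA-seq level of the same mouse. The ratio of IP to RNA-seq CPM at the Gc peak was 0.644, 1.15, 0.556, 0.709, 0.579 and 0.947 in db/db mice 1 to 6, with a mean of 0.764 ± 0.235 (SD, n = 6). The median ratio over all peaks with at least 10 reads of each type was 1.04 to 1.08 in these mice, and 10.5% to 55.5% of such peaks had a lower ratio than Gc. In 5 of 6 db/db mice the Gc peak was thus below the median peak of its own mouse in this ratio. CPM was scaled to the reads in peaks within each kind of library, which sets the median ratio near 1. The ratio therefore compares Gc with other called peaks, and a value under 1 does not show depletion by the antibody. The deposited fold enrichment of the peak, which was computed by the authors with their own scaling and on libraries that the table does not name, was 1.79.

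In db/m mice 1 to 5 the ratio was 1.41, 1.68, 0.210, 0 and 0.117, with a mean of 0.684 ± 0.796 (SD, n = 5). The db/m ratios lay on both sides of all 6 db/db ratios, and each rests on 9 RNA-seq reads or fewer. Relative to the RNA-seq reads, the IP reads of Gc differed between the genotypes by 0.26 (SE 0.38) on the log2 scale. This standard error rests on a spread shared by all peaks and not on the spread of the Gc ratios. The difference ran from -0.17 without db/m mouse 4 to 0.98 without db/m mouse 1, so its sign depended on single control mice. The fitted changes of Gc in IP and RNA-seq reads, 4.84 and 4.75, differed by less than their standard errors, and the few db/m reads leave the relative change imprecise.

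**Figure D2:**
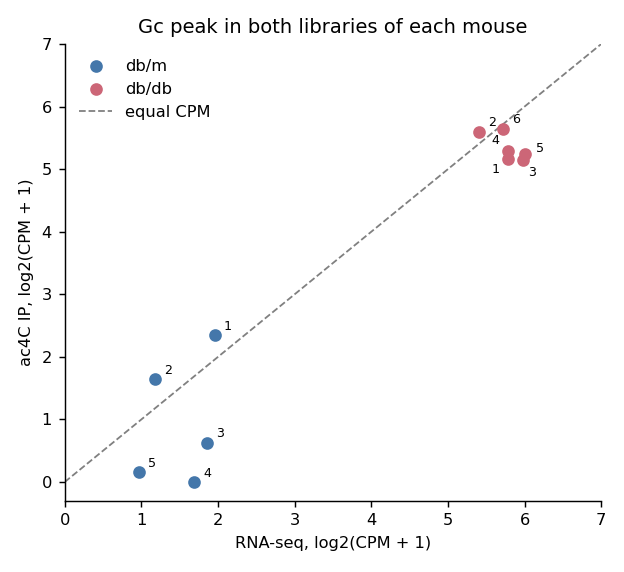
IP level against RNA-seq level of the Gc peak in each of the 11 mice, both as log2(CPM + 1). Points are mice with their number, and the dashed line marks equal CPM, with CPM scaled apart for each kind of library. The db/db mice form a group near the line, at 41.4 to 63.5 RNA-seq CPM, and the db/m mice scatter above and below it, at 0.951 to 2.89 RNA-seq CPM.

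Both peaks of Lrp2, the gene of the receptor that takes up vitamin D binding protein, were lower in db/db mice. This held for both kinds of library. The longer peak, at 69436644 to 69437532 of chromosome 2, lay 148497 to 149385 bases downstream of the start of this gene of 161695 bases. Its IP level was 173, 143, 134, 136, 97.0 and 249 CPM in db/db mice 1 to 6 and 283, 282, 283, 335 and 286 CPM in db/m mice 1 to 5. The genotypes did not overlap, as in 2.99% of all peaks with db/db mice wholly below db/m mice, and db/db mouse 6 came closest to the controls. The means were 155.5 ± 51.9 (SD, n = 6) and 293.7 ± 23.1 CPM (SD, n = 5), and the log2 fold change was -0.92 (SE 0.19, adjusted p = 0.00478 in edgeR's quasi-likelihood test). Of all 9857 peaks, 6.45% passed this test in IP reads, 3.38% as lower.

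Its RNA-seq level was 331, 343, 314, 283, 179 and 529 CPM in db/db mice and 534, 725, 574, 653 and 587 CPM in db/m mice. Again the genotypes did not overlap (4.34% of all peaks in this direction), with db/db mouse 6 just under the lowest control. The log2 fold change was -0.90 (SE 0.19, adjusted p = 0.0033 in edgeR's test), where 11.3% of all peaks passed and 5.93% passed as lower. The relative change of IP over RNA-seq reads was -0.01 (SE 0.09, adjusted p = 0.997) and did not pass.

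The shorter Lrp2 peak, from 69425240 to 69425450, lay near the 3′ end of the gene. In IP reads db/db mice had 163 ± 66.6 CPM (SD, n = 6) at this peak and db/m mice 297 ± 17.0 CPM (SD, n = 5), so that it fell by 0.86 on the log2 scale (SE 0.22, adjusted p = 0.0216 in edgeR's test). Here db/db mouse 6, at 282 CPM, lay among the controls, which ran from 271 to 312 CPM, and the other 5 db/db mice had at most 169 CPM. In RNA-seq reads the log2 fold change was -0.91 (SE 0.21, adjusted p = 0.00755), and mouse 6 overlapped the controls there too. The IP difference of this peak did not pass without db/m mouse 3 (adjusted p = 0.0595) or without db/m mouse 5 (adjusted p = 0.0541). The change relative to RNA-seq reads was 0.04 (SE 0.10, adjusted p = 0.962).

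In db/db mouse 6 the levels of Gc and Lrp2 thus went apart. Placed between the genotypes on the log2(CPM + 1) scale, with 0 for the db/m mean and 1 for that of db/db mice 1 to 5, Gc of this mouse stood at 1.08 in IP and 0.984 in RNA-seq reads. The longer Lrp2 peak stood at 0.209 and 0.188, and the shorter at 0.0649 and 0.0817. Without this mouse, the log2 fold change of the longer peak was -1.08 in both IP and RNA-seq reads.

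**Figure D3:**
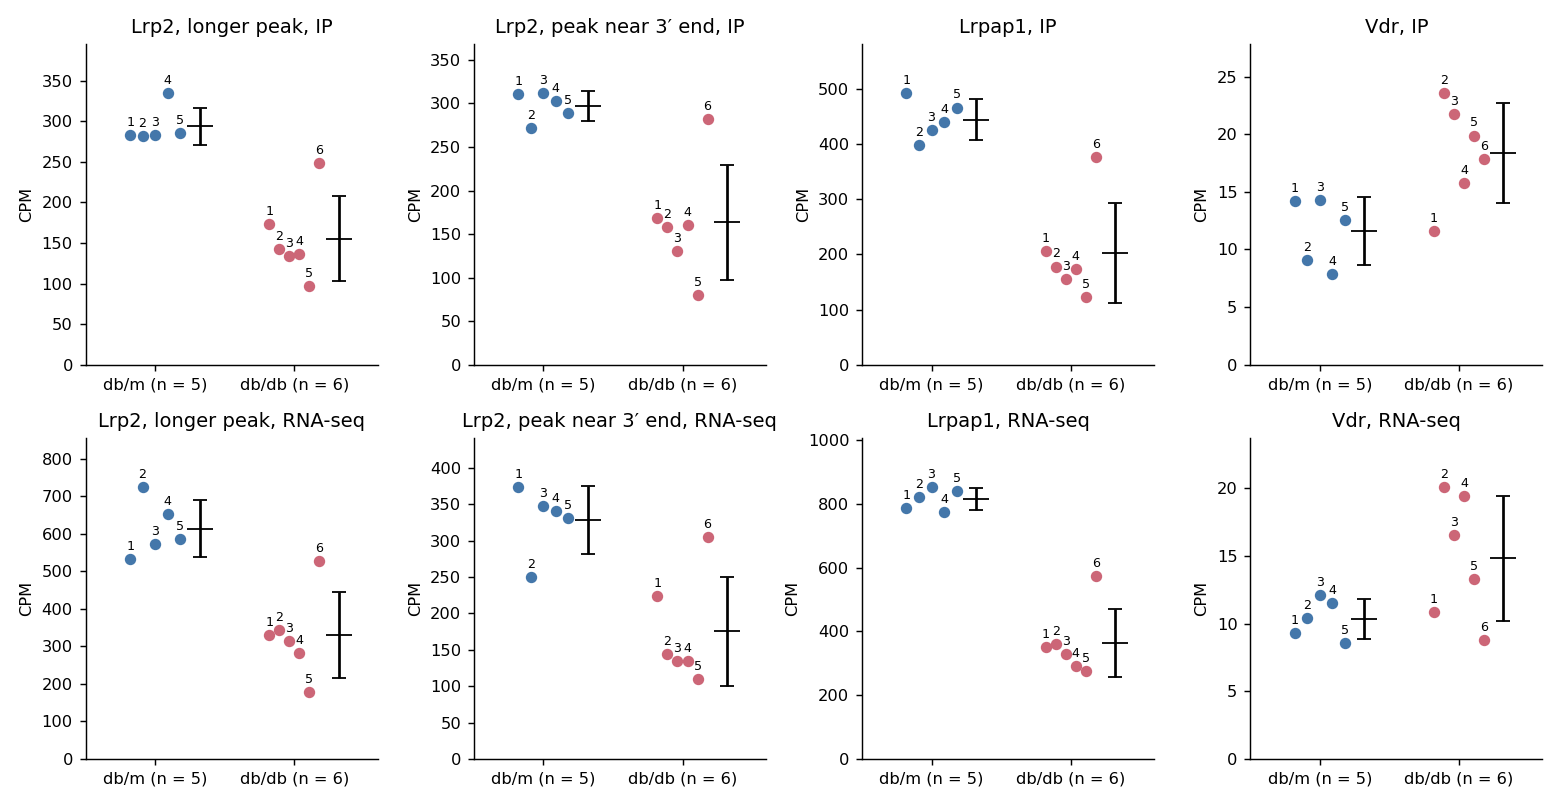
CPM of both Lrp2 peaks, the Lrpap1 peak and the Vdr peak from 97856995, in IP libraries (top) and RNA-seq libraries (bottom), with vertical axes from 0. Points are mice with their number, and bars give the mean and SD of 5 db/m and 6 db/db mice. Mouse 6 is the highest db/db mouse in all Lrp2 and Lrpap1 panels, and the Vdr values of the genotypes overlap.

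The peaks of Vdr lay on chromosome 15 from 97856995 to 97857115, in the list called in db/db mice, and from 97857025 to 97857145, in the list called in db/m mice. They share 91 of their 121 bases, so reads are counted in both, and lie 51151 to 51301 bases from the start of this gene of 53870 bases, near its 3′ end. At the first, the IP level was 11.6, 23.6, 21.7, 15.7, 19.9 and 17.8 CPM in db/db mice and 14.2, 9.12, 14.3, 7.83 and 12.6 CPM in db/m mice. Most db/db mice lay above the controls, but db/db mouse 1 lay among them, and the difference did not pass the test. The log2 fold change was 0.66 (SE 0.26, adjusted p = 0.149 in edgeR's test) in IP and 0.52 (SE 0.22, adjusted p = 0.155) in RNA-seq reads. The RNA-seq difference of this peak passed without db/db mouse 6 (0.63, adjusted p = 0.0482). The second peak had log2 fold changes of 0.67 (SE 0.26, adjusted p = 0.139) and 0.45 (SE 0.22, adjusted p = 0.205). Neither Vdr peak passed relative to RNA-seq reads (0.20 and 0.27, adjusted p = 0.926 and 0.885), a test that 0.0304% of all peaks passed. Cubn, at 13276338 to 13491876 on chromosome 2, had no peak and was not analysed here.

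The other genes of vitamin D uptake and action were taken from a list of 42 genes, with the peak of the most reads for each. A peak was found for 17 of them. In IP reads 0 passed as higher and 3 as lower (3.07% and 3.38% of all peaks), and the median log2 fold change was -0.30, against 0.00 over all peaks. In RNA-seq reads 0 passed as higher and 4 as lower (5.34% and 5.93% of all peaks), with a median of -0.16 against -0.01. In the ratio of IP to RNA-seq reads, 0 of the 17 passed in edgeR's test, which 0.0304% of all peaks passed. With an absolute log2 fold change over 1 required as well, 1 gene passed in IP reads (Lrpap1) and 2 in RNA-seq reads (Lrpap1 and Slc34a1), where 3.32% and 3.95% of all peaks did.

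Of the 9 uptake genes, 5 had a peak, and Lrp2 and Lrpap1 passed as lower in both kinds of library. Of all peaks, 3.38% passed as lower in IP and 5.93% in RNA-seq reads. Lrpap1 encodes the chaperone that keeps megalin from binding ligands too early, and its peak lay on chromosome 5 from 35102410 to 35105617. In IP libraries it had 207, 178, 155, 174, 122 and 378 CPM in db/db mice and 493, 398, 425, 441 and 467 CPM in db/m mice. The genotypes did not overlap, as in 2.99% of all peaks with db/db mice wholly below db/m mice. Lrpap1 fell by 1.14 on the log2 scale in IP reads (SE 0.22, adjusted p = 0.0027 in edgeR's test) and by 1.17 in RNA-seq reads (SE 0.15, adjusted p = 4.1e-05). As with Lrp2, db/db mouse 6 was the highest of its genotype. Amn, the membrane anchor of cubilin, had changes of -0.50 (adjusted p = 0.0801) and -0.37 (adjusted p = 0.178) and did not pass. The motor gene Myo6 (-0.60 in IP and -0.39 in RNA-seq reads) and the adaptor gene Gipc1 (-0.08 and 0.36) did not pass either.

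Among the 12 genes of the receptor and its partners, 7 had a peak and 0 passed, where 6.45% of all peaks passed in IP and 11.3% in RNA-seq reads. They include the retinoid X receptors Rxra and Rxrb, with which Vdr binds DNA, at -0.14 and -0.33 in IP and -0.02 and -0.01 in RNA-seq reads. None of the 5 vitamin D enzymes, among them Cyp27b1, which makes the active hormone, and Cyp24a1, which degrades it, had a peak.

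Of 16 targets and genes of mineral handling, 5 had a peak. Slc34a1, the main phosphate transporter of the proximal tubule, fell by 0.97 in IP reads (SE 0.25, adjusted p = 0.0266 in edgeR's test) and by 1.05 in RNA-seq reads (SE 0.27, adjusted p = 0.0141), at chromosome 13 from 55402685 to 55402989. Its IP change no longer passed without db/db mouse 2, 3, 4 or 5 or db/m mouse 2 or 5 (highest adjusted p = 0.0696). Pth1r, the receptor of parathyroid hormone, was at -0.77 in IP reads (SE 0.24, adjusted p = 0.0694), which did not pass but did without db/m mouse 2 (-0.93, adjusted p = 0.0109) or db/db mouse 6 (-0.84, adjusted p = 0.048), and fell by 0.73 in RNA-seq reads (SE 0.17, adjusted p = 0.00719). Calb1, the calcium-binding protein gene calbindin of the distal tubule and a target of Vdr, was at 0.04 and 0.05. The 4 genes that passed in this list include Lrp2 and Slc34a1, which are also proximal tubule markers. Of the 8 such markers with a peak, 4 passed as lower in RNA-seq reads (Acsm2, Lrp2, Slc27a2 and Slc34a1) and 0 as higher (5.93% and 5.34% of all peaks), against 3 and 0 in IP reads (3.38% and 3.07%). Each gene is counted by its peak with the most reads, and for Slc4a4 the overlapping peaks from 89238246 and 89238276, which hold fewer reads, passed as higher in RNA-seq reads. The part of cell composition in the fall of the uptake genes was not tested.

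**Figure D4:**
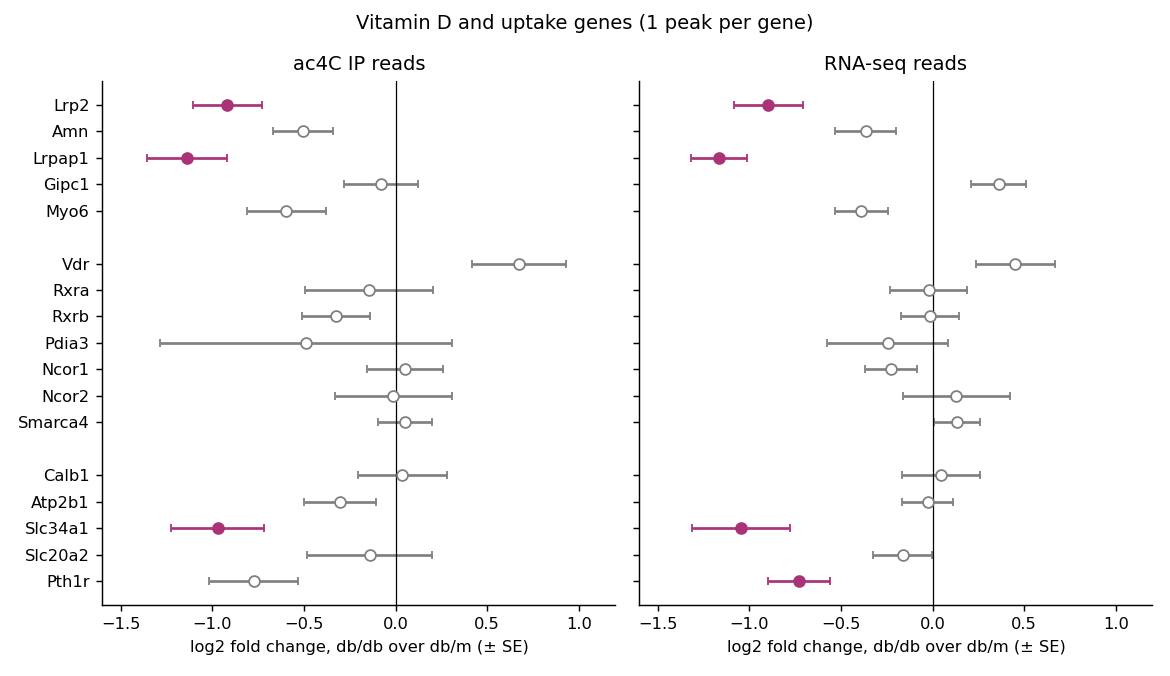
Log2 fold change of db/db over db/m mice, with its standard error, for the 17 genes of vitamin D uptake and action that had a peak, in IP reads (left) and RNA-seq reads (right). Filled points passed the adjusted p of 0.05, blocks from top to bottom are uptake, receptor and partners, and targets, and Vdr is shown by its peak from 97857025. Filled points are all below 0, with 3 in IP and 4 in RNA-seq reads.

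Gc belongs to the albumin family and is one of the plasma protein genes of the liver, so those genes were read in the same way. Alb, Afp and Afm, which lie next to each other on chromosome 5 from 90460870 to 90553544, had no peak. Alb starts 1002972 bases from Gc. Of 33 genes of the albumin family and of plasma proteins, 3 had a peak (Apoe, Kng2 and Itih1), and 2 passed as higher in both IP and RNA-seq reads, where 3.07% and 5.34% of all peaks passed as higher. Genes were counted by the name given to each peak. Trf, also in this list, was therefore counted as without a peak, although the peak named Gm20425, described below, overlaps Trf in RefSeq. Kng2, which encodes kininogen, the precursor of bradykinin, had 84.7 ± 8.25 CPM (SD, n = 6) in db/db and 42.6 ± 3.97 CPM (SD, n = 5) in db/m mice in IP reads. It rose by 0.99 on the log2 scale (SE 0.15, adjusted p = 3.5e-04 in edgeR's test) and by 0.89 in RNA-seq reads (SE 0.11, adjusted p = 3.1e-05). Apoe, the gene of apolipoprotein E, was at 2.31 in IP and 2.30 in RNA-seq reads and is also among the profiles nearest to Gc. Itih1 had 30 reads over all 22 libraries. None of the 18 hepatocyte markers, such as Alb, Ttr and Fga, had a peak, so liver RNA was not measured by them here. Only features called as ac4C peaks are in the table, and a gene without a peak has no value here whatever its expression.

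Adipocyte genes with a peak were Lpl, Adipoq and Plin1. Adipoq and Plin1 had 24 and 37 reads over all 22 libraries. Lpl, the lipoprotein lipase gene, fell by 4.88 in IP reads (SE 1.38, adjusted p = 0.0404 in edgeR's test) and by 3.03 in RNA-seq reads, the opposite direction to Gc. Its db/m IP values ran from 13.9 to 3052 CPM and overlapped those of db/db mice, which ran from 3.96 to 320 CPM with a median of 6.64. Relative to RNA-seq reads Lpl changed by -2.24 (SE 0.20, adjusted p = 8.5e-21 in edgeR's test), with a spread shared by all peaks. It was 1 of the 3 peaks that passed this test. Aqp2, the water channel gene of the collecting duct, rose by 1.56 and 1.38. None of the 3 genes of endothelium and podocytes with a peak passed in IP or RNA-seq reads, where 6.45% and 11.3% of all peaks passed.

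Most genes next to Gc had changes that did not pass the test. Within 1000000 bases on either side, 5 genes had 16 peaks, some of them overlapping or the same in both lists. Of these peaks, 0 passed in IP reads, against 6.45% of all peaks. The IP changes ran from -1.31 to 2.33, the latter at an Ankrd17 peak with 11 reads over all 22 libraries. In RNA-seq reads 4 of the 16 passed, against 11.3% of all peaks, and these are overlapping pairs in 2 genes. The pair in Slc4a4, the bicarbonate cotransporter of the proximal tubule, rose by 0.53 in RNA-seq reads (adjusted p = 0.00416 and 0.00483 in edgeR's test). The gene ends 177855 bases from Gc. The pair in Rufy3 fell by 0.66 and 0.64 (adjusted p = 0.0354 and 0.0325). The test of the difference between these genes and Gc was not made, since Gc was chosen for its change.

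The peaks most like Gc were found by the root mean square distance between centred log2(CPM + 1) values over all 22 libraries, among 6772 peaks. Their changes are a description, because likeness to Gc chose them. The nearest, at a distance of 0.992, is listed as Gm20425, at chromosome 9 from 103219884 to 103221003. RefSeq has Trf, the gene of the plasma iron carrier transferrin, at that place. In IP reads this peak had 46.5 ± 6.35 CPM (SD, n = 6) in db/db and 6.21 ± 4.91 CPM (SD, n = 5) in db/m mice, and in RNA-seq reads 91.7 ± 19.2 and 12.4 ± 1.76 CPM. The log2 fold changes of 2.90 in IP and 2.88 in RNA-seq reads lay close to each other, as did those of Gc.

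Next came Aldh1a1 (distance 1.09), which makes retinoic acid, and Cyp26b1 (1.14), which degrades it. Their log2 fold changes were 2.32 and 3.02 in IP and 2.56 and 3.29 in RNA-seq reads. Fabp1 (1.15), the liver fatty acid binding protein gene, had 8.60 ± 4.53 CPM (SD, n = 6) in db/db and 0.515 ± 0.704 CPM (SD, n = 5) in db/m mice in IP reads. Among RNA-seq libraries it had 201 reads over the 6 db/db mice and 2 over the 5 db/m mice. The log2 fold change of Fabp1 was 4.02 (SE 0.71) in IP and 5.93 (SE 0.77) in RNA-seq reads, the latter larger than that of Gc (4.75). The 2 db/m reads leave this RNA-seq change imprecise. Apoe (1.24) came last, with an IP level of 651 to 2474 CPM in db/db and 185 to 336 CPM in db/m mice.

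These genes shared the separation of the genotypes with Gc, and the order of the mice differed from that at Gc in some of them. In IP reads db/m mouse 4 was the highest control at Gm20425, Aldh1a1, Cyp26b1 and Fabp1, with 13.6, 36.9, 10.3 and 1.74 CPM, whereas at Gc it had 0 reads. At Apoe the highest control in IP reads was db/m mouse 1, as at Gc, with 336 CPM against 323 CPM in db/m mouse 4. db/db mouse 6, which stood with its genotype at Gc, was at 0.640 of the way at Cyp26b1 in IP reads and at 0.285 at Fabp1 in RNA-seq reads. Its other positions at these genes ran from 0.657, at Fabp1 in IP reads, to 1.02, at Aldh1a1 in IP reads. At Gm20425 it stood at 0.978 in IP and 0.990 in RNA-seq reads, with its genotype as at Gc.

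**Figure D5:**
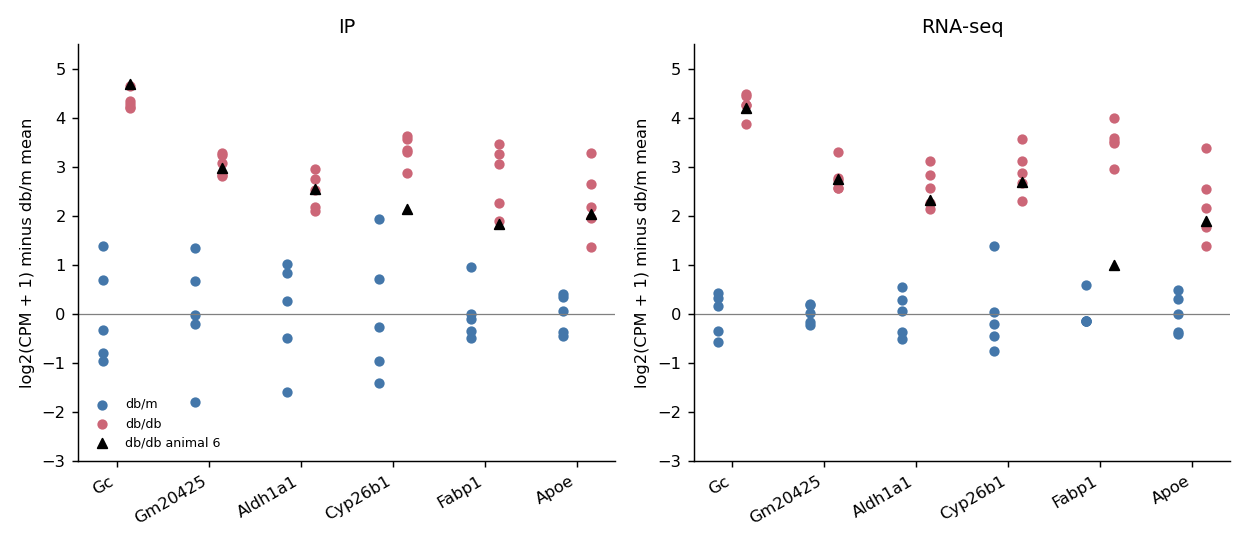
Level of Gc and of the 5 peaks with the most similar profile in each mouse, as log2(CPM + 1) minus the db/m mean of the gene, in IP libraries (left) and RNA-seq libraries (right). Points are the 5 db/m and 6 db/db mice, and the triangle is db/db mouse 6. On this scale Gc has the widest gap between the genotypes in both panels, and mouse 6 is low among db/db mice at Cyp26b1 in IP and at Fabp1 in RNA-seq reads. The added 1 CPM narrows the gap of genes with few reads, such as Fabp1, whose fitted RNA-seq change is larger than that of Gc.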

How the data were processed

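Sample titles gave the genotype, the animal and the kind of each of the 22 libraries. The authors deposited counts of whole reads, not normalized, for each peak in each library. The fold enrichment of each peak and the score, which holds the same values, are a ratio that the authors deposited, and so are a peak p-value and FDR, of which the FDR was read but not printed. Columns with the authors' log2 change, p-value and FDR of db/db against db/m mice were also deposited and were not used. GRCm38 is named in the submitters' processing notes, and the aligner, peak caller and counting tool are not given in the sources used here. Starts count from 0, since adding 1 to the start matched a RefSeq gene start in 103 peaks and the start as given in 8. Positions are given here from 1. By their names, 4909 of the deposited peaks were called in db/db mice and the remaining 4948 in db/m mice.

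IP and RNA-seq counts were fitted apart with edgeR 4.0.16 (R 4.3.3, glmQLFit and glmQLFTest, TMM, no filter on low counts) with genotype as the term. The relative change was fitted over 22 libraries with animal, library type and their interaction with genotype. Its estimate of spread was shared by all peaks. The methods name general tests between groups and none specific to read counts in peaks. The Benjamini-Hochberg adjustment ran over 9857 peaks, and each fit was tested on simulated data. Profiles and ratios were computed in Python 3.11.15 with numpy 2.4.6 and pandas 2.3.3, with a pseudocount of 1 CPM for log2 levels. Limits for a count of 0 cover counting error only, since PCR copies were not separated. Replicates are numbered animals of a genotype.

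The members and lists were chosen with earlier results of these data known. Named are all peaks of Gc, Lrp2 and Vdr, every gene of a list that passed (at most 12 a list) with some chosen by role, and the 5 genes with the profile nearest to that of Gc among peaks with a mean of at least 10 reads of both types in a genotype. The HNF1 letters, on both strands, were searched in the RefSeq promoter table (GRCm38.p6), where Gm20425 and Trf had no entry. The sequence under the Gc peak was not analysed here. Alternatives were DESeq2 1.42.0, library sizes without TMM, a filter at a mean of 10 reads, an added fold threshold, every peak of a gene, each animal left out and the animal number as a block.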

Additional observations from a re-analysis of the deposited data

Results flagged for a closer look

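Single mice stood apart from the others of their genotype in 9 of 56 groups of values tested over 14 named peaks, where chance alone gives about 1 in 20, or 2.8. These groups are not independent, since some peaks overlap and both kinds of library come from the same mice. The count is therefore not a test of an excess. The gap between the extreme mouse and its nearest neighbour was too wide a part of the range by Dixon's test. No value of Gc was among them. The lower levels of uptake genes had a high db/db mouse 6 at Lrpap1, at 378 CPM in IP and 572 CPM in RNA-seq reads. At the longer Lrp2 peak db/m mouse 4 had 335.0 CPM in IP reads, above the 4 other controls, and db/m mouse 2 was low at Pth1r with 295 CPM in RNA-seq reads.

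Among the genes with a profile near that of Gc, db/m mouse 4 was high at Cyp26b1 in RNA-seq reads (4.79 CPM, 15 reads) and at Fabp1 in IP reads (1.74 CPM, 16 reads). db/m mouse 3 was the only control with Fabp1 RNA-seq reads (0.654 CPM, 2 reads). db/db mouse 3 was high at Gm20425 with 129 CPM in RNA-seq reads. In the plasma protein list, db/m mouse 5 was high at Kng2 with 101 CPM in RNA-seq reads.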

How the results depend on the processing

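The log2 fold change of Gc stayed above 0 under all alternatives run, at 4.52 to 5.83 in IP reads and 4.58 to 4.92 in RNA-seq reads when each mouse was left out, with the highest IP value without db/m mouse 1. The relative change of Gc ran from -0.17 to 0.98. Of the 4 Lrp2 and Vdr peaks, 2 passed in IP reads (6.45% of all peaks), and 1 to 2 did with a mouse left out. For RNA-seq reads these counts were 2 (11.3% of all peaks) and 2 to 3. The genes of the vitamin D list that passed in IP reads numbered 3, against 5 with DESeq2 (with Amn and Pth1r), 1 with an absolute log2 fold change over 1 (Lrpap1), 6 of 43 peaks when every peak was counted, and 2 to 4 with a mouse left out. In RNA-seq reads they numbered 4, against 2 with that fold threshold (Lrpap1 and Slc34a1), 9 of 43 peaks, and 4 to 5 with a mouse left out. The plasma protein list had 2 genes passing in both kinds of reads, 1 with the fold threshold (Apoe), 3 of 4 peaks, and 2 to 2 with a mouse left out. As a replicate block, the animal number gave Gc 5.28 in IP and 4.77 in RNA-seq reads, and the vitamin D list 4 and 6 genes (with Amn and Myo6 in RNA-seq reads). With the block the Vdr peak from 97856995 passed in RNA-seq reads (adjusted p = 0.0226). The numbers did not pair the mice, since same-numbered mice deviated together (r over 0.1) in 2 of 5 pairs in each kind of library and 0 of 5 db/m mice were closest to their own number. The causes of these shifts were not tested. Library sizes without TMM moved the median of all peaks to 0.10 in IP and 0.07 in RNA-seq reads. The 66 IP and 31 RNA-seq reads of Gc in db/m mice limit the precision of its fold change.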
